A study of Homo sapiens with 16 samples.

Results

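Tight junctions seal the space between neighbouring epithelial cells. Claudins and occludin cross the membrane and meet their counterparts on the next cell, the adhesion molecule encoded by F11R (JAM-A) joins them from the immunoglobulin superfamily, and the zonula occludens proteins ZO-1 (TJP1) and ZO-3 (TJP3) tie these membrane proteins to the actin cytoskeleton. In the bladder this seal is part of the barrier between urine and tissue, and the set of claudins a urothelial cell makes changes with its state of differentiation. The 9 genes described here were CLDN1, CLDN3, CLDN4, CLDN7, CLDN12, OCLN, F11R, TJP1 and TJP3, of 58721 genes in the count table, matched by gene name. The set was chosen by measured values: CLDN1 counts rose in SCaBER cells under both siRNAs against FOXA1. The SCaBER changes under those siRNAs are therefore given as a description, without a test.

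Gene counts came from 16 libraries of 3′ mRNA sequencing, a method that reads the ends of transcripts. The cells were RT112, a bladder cancer line of the luminal type grown in RPMI, and SCaBER, a bladder cancer line of the basal type grown in DMEM, both with serum, so cell line and medium cannot be told apart. Each line was transfected with 10 nM of 1 of 4 small interfering RNAs (siRNAs), siControl.1 and siControl.2 as controls or siFOXA1.1 and siFOXA1.2 against FOXA1, a forkhead transcription factor of luminal urothelial cells. Each siRNA had 2 libraries per line, numbered as batch replicates 1 and 2. Each condition rests on 1 cell line, and the knock-down was short-term.

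Library totals were 6622470 to 7604580 counts in RT112 and 4528510 to 6914950 counts in SCaBER. Levels are given as CPM, the count of a gene after each library was scaled to the same total. A count of 0 allows up to 3 counts, which came to 0.394 to 0.453 CPM for RT112 libraries and 0.434 to 0.662 CPM for SCaBER libraries, for counting error only. The summed level of 8 luminal markers was 3037 to 5791 CPM in RT112 and 444 to 1014 CPM in SCaBER, and that of 7 basal markers was 274 to 628 CPM in RT112 and 2192 to 3694 CPM in SCaBER, so the 2 lines did not overlap on either list. Leukocyte markers (5 genes) summed to at most 5.49 CPM and endothelial markers (4 genes) to at most 11.2 CPM in any library, and fibroblast markers (5 genes) to 84.6 to 146 CPM in RT112 and 10.03 to 45.1 CPM in SCaBER. FOXA1 itself was at 18.2 to 34.98 CPM in the 4 RT112 control libraries, 1.32 and 3.24 CPM under siFOXA1.1 and 9.18 and 16.0 CPM under siFOXA1.2. In SCaBER, FOXA1 had 3 to 15 counts in the controls and 0 to 6 counts under the siFOXA1 siRNAs, a range that reaches the detection limit. Mitochondrial genes took 25.7% and 28.2% of the counts in the RT112 siFOXA1.1 libraries, against 18.0% to 21.2% in the other 6 RT112 libraries; the part of this shift in the RT112 siFOXA1.1 results was not tested. Fewer cells and less RNA per cell cannot be told apart in such bulk samples.

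CLDN1 (ENSG00000163347, chromosome 3, 190305707 to 190322446 on GRCh38.p14, inside the span annotated for CLDN16) encodes a barrier-forming claudin and was the gene that chose the set. In SCaBER it was at 55.7 and 43.2 CPM under siControl.1 and at 132 and 100 CPM under siControl.2. Under siFOXA1.1 it was at 233 and 290 CPM, and under siFOXA1.2 at 199 and 204 CPM. All 4 siFOXA1 libraries lay above all 4 control libraries, and the siControl.1 libraries were the lowest. The fitted log2 change against the mean of both controls was 1.81 ± 0.19 (SE) for siFOXA1.1 and 1.43 ± 0.19 for siFOXA1.2. Within batch replicates 1 and 2 the log2 CPM difference was 1.44 and 2.13 for siFOXA1.1, and 1.21 and 1.62 for siFOXA1.2. The size depended on the control: against siControl.1 alone the log2 changes were 2.43 and 2.05, and against siControl.2 alone they were 1.19 and 0.80. These values chose the gene and are given without a p-value.

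The same order of siRNAs was not seen in RT112. There CLDN1 was at 60.2 and 53.8 CPM under siControl.1, at 118 and 136 CPM under siControl.2, at 114 and 179 CPM under siFOXA1.1 and at 114 and 129 CPM under siFOXA1.2. The siControl.1 libraries stood alone at the bottom, and both siControl.2 libraries fell between the lowest and the highest siFOXA1 library. Under siFOXA1.1 CLDN1 was higher than the mean of both controls by 0.91 ± 0.17 on the log2 scale (edgeR quasi-likelihood test, Benjamini-Hochberg adjusted p = 0.000388). Against siControl.2 alone the difference was 0.37 and did not pass (edgeR adjusted p = 0.205; over all alternatives adjusted p ran from 7.2e-10 to 0.205). Under siFOXA1.2 the difference was 0.53 ± 0.17 (edgeR adjusted p = 0.167), and against siControl.2 alone it was -0.02.

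The control siRNAs were compared with each other at CLDN1. In RT112, CLDN1 was lower under siControl.1 than under siControl.2 by 1.09 ± 0.21 on the log2 scale (edgeR log2 change -1.09, adjusted p = 0.00603), in a comparison where 2.11% of all genes tested were called at an adjusted p under 0.05. It was the single member called, and it did not pass with limma on log2 TPM (-1.21, adjusted p = 0.0645). In SCaBER the same difference was -1.25 ± 0.24, given without a p-value since the SCaBER controls entered the choice of CLDN1. In that comparison 0.0671% of all genes tested were called, and none of the other members was. TJP3 in RT112 was at 44.1 and 43.0 CPM under siControl.1 and at 20.5 and 24.3 CPM under siControl.2, a log2 difference of 1.02 ± 0.30 that did not pass (edgeR adjusted p = 0.101).

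**Figure D1:**
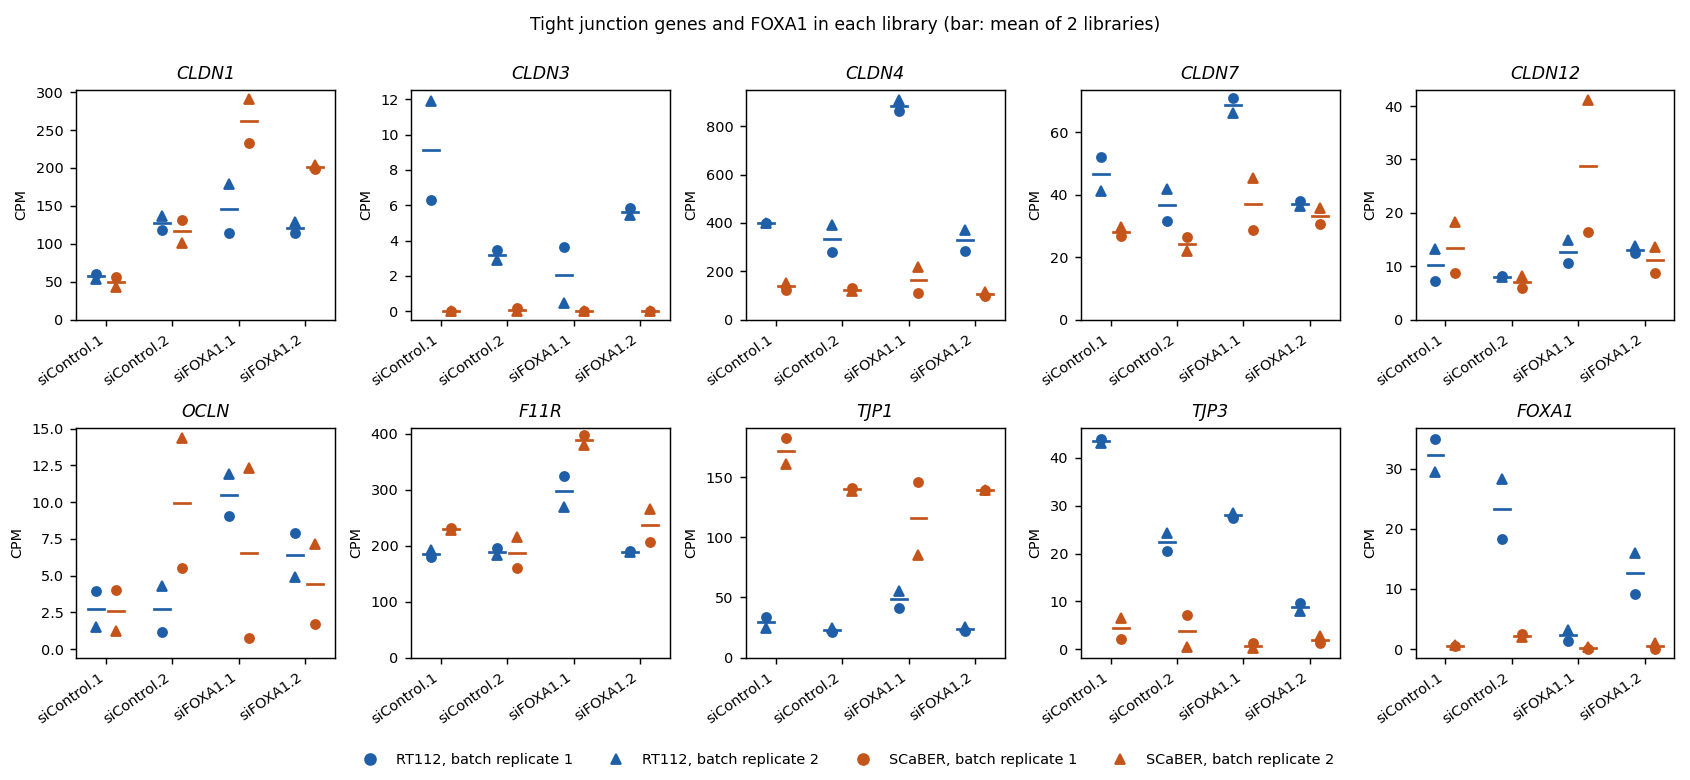
CPM (counts scaled to library totals, linear axis) of the 9 tight junction genes and FOXA1 in each of the 16 libraries, by siRNA. Blue marks RT112 and orange SCaBER, circles and triangles are batch replicates 1 and 2, and the short bar is the mean of the 2 libraries; the SCaBER siFOXA1 libraries lie at 199 to 290 CPM for CLDN1, above the SCaBER controls at 43.2 to 132 CPM.

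Promoter sequence is shown for CLDN1, the gene that chose the set, for CLDN4, which had the lowest adjusted p among the members under siFOXA1.1 in RT112, and for CLDN3, which had 1 count over the 8 SCaBER libraries. Each line gives the 250 bases before the annotated start, 5′ to 3′ on the strand of the gene, from RefSeq on GRCh38.p14. Capitals mark matches, on either strand, to a GC box (GGGCGG) or an AP-1 site (TGAGTCA).
CLDN1, chr3:190322447-190322696, minus strand: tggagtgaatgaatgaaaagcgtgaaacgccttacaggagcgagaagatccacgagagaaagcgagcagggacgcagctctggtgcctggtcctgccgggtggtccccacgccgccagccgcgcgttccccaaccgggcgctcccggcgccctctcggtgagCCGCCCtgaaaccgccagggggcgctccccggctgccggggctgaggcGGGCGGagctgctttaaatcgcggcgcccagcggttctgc
CLDN4, chr7:73830746-73830995, plus strand: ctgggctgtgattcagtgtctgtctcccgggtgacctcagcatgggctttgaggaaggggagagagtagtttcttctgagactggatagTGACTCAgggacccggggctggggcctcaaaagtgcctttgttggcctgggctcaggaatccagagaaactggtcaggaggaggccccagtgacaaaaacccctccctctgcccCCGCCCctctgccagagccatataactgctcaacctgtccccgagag
CLDN3, chr7:73770271-73770520, minus strand: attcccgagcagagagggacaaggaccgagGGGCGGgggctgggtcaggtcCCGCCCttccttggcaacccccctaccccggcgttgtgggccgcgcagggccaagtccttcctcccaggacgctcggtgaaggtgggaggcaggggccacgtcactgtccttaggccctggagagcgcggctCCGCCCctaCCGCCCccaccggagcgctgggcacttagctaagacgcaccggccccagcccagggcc

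Of the 9 members, 8 had promoter windows in the RefSeq table, 14 windows in all of 300 bases each (250 before and 50 after a start); F11R had none. The forkhead letters TGTTTAC, searched on both strands, were in 0 of the 14 windows and in 3.42% of all 35116 windows, and the variant TGTTTGC was in 1, a window of TJP1, against 3.89% of all. The AP-1 letters TGAGTCA were in 1, the window of CLDN4, against 4.95% of all. GGGCGG was in 10 of the 14 windows, against 45.0% of all, and the E-box letters CACCTG, which the repressors of the SNAI and ZEB families can bind, were in 6, against 20.6% of all. The grainyhead letters AACCGGTT and the TATA box letters TATAAA were in 0 of the 14, against 0.134% and 11.5% of all windows. The median GC content was 67.5% in the members' windows and 58.7% in all, and its part in the motif counts was not tested. None of these counts says where a factor was bound.

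In RT112 under siFOXA1.1, 6 of the 9 members rose and none fell against the mean of both controls, while 29.1% of the 13462 genes tested were called and 14.0% were called higher. The median log2 change was 0.86 over the members and -0.02 over all genes tested. All 9 members passed the filter on low counts. With library totals alone in place of TMM scaling, the all-gene median moved to -0.14 and the split of calls from 1878 higher and 2037 lower to 1490 higher and 2453 lower, and the same 6 members were called. With limma on log2 TPM the all-gene median was -0.31, and 28.2% of all genes were called. There 3 of the 6 were called (CLDN4, CLDN7 and F11R), and CLDN1, OCLN and TJP1 were not (0.55, 1.07 and 0.60, adjusted p = 0.0536, 0.0978 and 0.0958). The 8 luminal markers summed to 3342 and 3037 CPM under siFOXA1.1 against 4718 to 5791 CPM in the controls and 4380 and 4122 CPM under siFOXA1.2; their part in the members' changes was not tested.

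CLDN4, a claudin that sets the ion selectivity of the space between cells, had the lowest adjusted p of the 9 in this comparison. It was at 399 and 399 CPM under siControl.1 and at 281 and 390 CPM under siControl.2 in RT112. Under siFOXA1.1 it reached 863 and 910 CPM, and both libraries lay above every other RT112 library. The log2 change was 1.40 ± 0.12 (edgeR adjusted p = 4.96e-08), and it was 1.36 and 1.205 in log2 CPM within batch replicates 1 and 2.

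F11R, the adhesion molecule JAM-A, was at 179 to 196 CPM in the 4 RT112 controls and at 325 and 270 CPM under siFOXA1.1. The groups did not overlap, and the log2 change was 0.78 ± 0.12 (edgeR adjusted p = 3.55e-05). CLDN7 was at 31.4 to 51.9 CPM in the controls and at 71.0 and 66.1 CPM under siFOXA1.1, again without overlap. Its log2 change was 0.86 ± 0.20 (edgeR adjusted p = 0.00292); against siControl.1 alone it was 0.65 (adjusted p = 0.0537). CLDN7 shares part of its span on chromosome 17 with ELP5, so reads in the shared stretch cannot be told apart without strand.

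TJP1, the ZO-1 scaffold, was at 21.6 to 34.1 CPM in the RT112 controls and at 41.6 and 55.7 CPM under siFOXA1.1, without overlap. The log2 change was 1.02 ± 0.25 (edgeR adjusted p = 0.0034). Without siFOXA1.1 replicate 2 it was 0.76 (adjusted p = 0.0761), so this call rested on that library. OCLN, occludin, was low, at 9 to 31 counts (1.198 to 4.31 CPM) in the controls and 62 and 81 counts (9.08 and 11.9 CPM) under siFOXA1.1. Its libraries did not overlap either, with a log2 change of 2.06 ± 0.64 (edgeR adjusted p = 0.0193). OCLN lost its call without siFOXA1.1 replicate 2 (adjusted p = 0.0758), without siControl.2 replicate 1 (0.051), and against either control alone (0.0698 and 0.0627).

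The other 3 members did not pass in RT112 under siFOXA1.1. CLDN12, a claudin without the usual binding motif for ZO proteins at its end, was at 7.23 to 13.3 CPM in the controls and at 10.54 and 14.9 CPM under siFOXA1.1, with a log2 change of 0.61 ± 0.41. TJP3 was at 27.5 and 28.4 CPM, between its siControl.1 and siControl.2 levels, with a log2 change of -0.03 ± 0.26. CLDN3 had 25 and 3 counts, against 21 to 79 in the controls, with a log2 change of -1.28 ± 0.80 (edgeR adjusted p = 0.249). It was called lower (log2 change -3.42, adjusted p = 0.0144) when siFOXA1.1 replicate 1 was left out and the library with 3 counts stood alone.

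**Figure D2:**
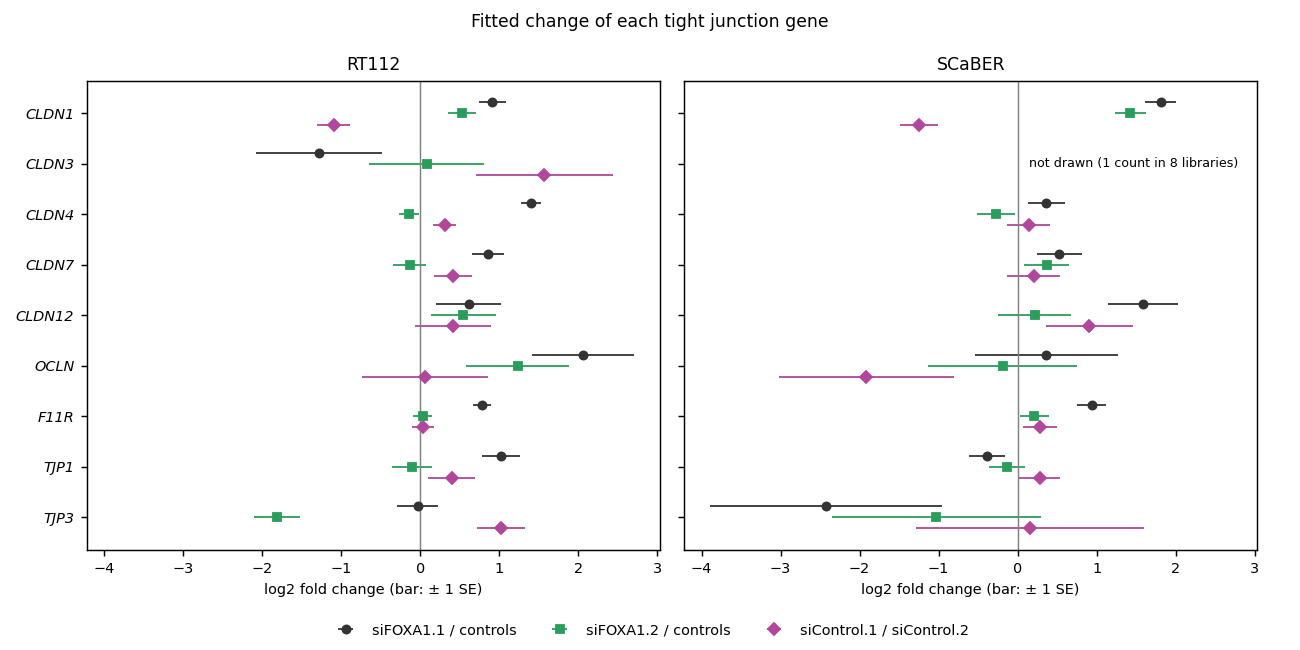
Fitted log2 fold change of each member (edgeR; horizontal bar, 1 SE either side) for siFOXA1.1 and siFOXA1.2 against the mean of both controls and for siControl.1 against siControl.2, in RT112 (left) and SCaBER (right). CLDN3 in SCaBER is not drawn; in RT112 the siFOXA1.1 points of CLDN4 (1.40), F11R (0.78), CLDN7 (0.86) and TJP1 (1.02) lie to the right of their siFOXA1.2 points, and CLDN1 is negative between the controls in both lines (-1.09 and -1.25).

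Under siFOXA1.2 in RT112, where FOXA1 was lowered less, 1 member was called, in a comparison with 1.78% of all genes called. That was TJP3, the ZO-3 scaffold, which fell. It was at 9.62 and 7.92 CPM under siFOXA1.2, below all 6 other RT112 libraries, which ran from 20.5 to 44.1 CPM. The log2 change was -1.81 ± 0.29 (edgeR adjusted p = 0.00154). Against siControl.2 alone it was -1.30 (adjusted p = 0.0526). TJP3 overlaps APBA3 on chromosome 19 in the annotation. F11R stayed at 190 and 189 CPM and CLDN4 was at 285 and 370 CPM, inside the ranges of their controls, with log2 changes of 0.03 ± 0.12 and -0.14 ± 0.13. CLDN7 and TJP1 had log2 changes of -0.14 ± 0.21 and -0.10 ± 0.26, and CLDN12, CLDN3 and OCLN had 0.54 ± 0.41, 0.08 ± 0.73 and 1.23 ± 0.65. OCLN was not called, but its siFOXA1.2 libraries, at 54 and 36 counts (7.87 and 4.92 CPM), lay above all 4 controls (9 to 31 counts, 1.198 to 4.31 CPM).

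Compared directly in RT112, siFOXA1.1 gave higher levels than siFOXA1.2 for 5 of the 9 members, with 24.7% of all genes called and 11.4% called higher. CLDN4 differed by 1.54 ± 0.15 on the log2 scale (edgeR adjusted p = 2.92e-07) and TJP3 by 1.78 ± 0.32 (adjusted p = 0.000363). TJP1, CLDN7 and F11R differed by 1.13 ± 0.30, 0.99 ± 0.24 and 0.75 ± 0.14 (edgeR adjusted p = 0.00796, 0.00469 and 0.000441). Without siFOXA1.2 replicate 1 or siFOXA1.1 replicate 2, TJP1 did not pass (adjusted p = 0.0632 and 0.0755). With limma on log2 TPM, neither TJP1 (0.70, adjusted p = 0.105) nor F11R (0.46, adjusted p = 0.0624) did. CLDN1 differed by 0.39 ± 0.20 and did not pass (edgeR adjusted p = 0.181), though it did without siFOXA1.1 replicate 1 (0.69, adjusted p = 0.00633). When all 4 siFOXA1 libraries were pooled against all 4 controls in RT112, no member was called (edgeR and DESeq2), with 0.0966% of all genes called by edgeR. In that pooled fit 1616 of the 13462 genes had an unadjusted p under 0.05, and so did 3 members: OCLN at a log2 change of 1.71 ± 0.57, CLDN4 at 0.82 ± 0.35 and F11R at 0.46 ± 0.21.

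In SCaBER the changes against the controls belong to the comparison that chose the set, so the members' values are given without calls. Over all genes tested, 7.87% were called under siFOXA1.1, 0.0373% under siFOXA1.2 and 0.00746% with the siRNAs pooled. The pooled log2 change of CLDN1 was 1.502 ± 0.30. The luminal markers summed to 509 and 444 CPM under siFOXA1.1 in SCaBER against 759 to 1014 CPM in the other 6 libraries, and their part in these changes was not tested.

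F11R in SCaBER was at 232 and 228 CPM under siControl.1, 159 and 216 CPM under siControl.2, 398 and 380 CPM under siFOXA1.1 and 207 and 266 CPM under siFOXA1.2. The siFOXA1.1 libraries stood above all others, and the siFOXA1.2 libraries overlapped the controls. Its log2 change was 0.94 ± 0.18 under siFOXA1.1 and 0.21 ± 0.18 under siFOXA1.2. CLDN12 was at 6.00 to 18.2 CPM in the controls, 16.5 and 41.2 CPM under siFOXA1.1 and 8.64 and 13.6 CPM under siFOXA1.2, so that siFOXA1.1 replicate 2 alone lay outside the control range. Its log2 change was 1.58 ± 0.44 under siFOXA1.1. TJP1 ran from 138 to 183 CPM in the controls and was at 146 and 85.8 CPM under siFOXA1.1 and 139 and 139 CPM under siFOXA1.2. Its log2 changes were -0.38 ± 0.23 and -0.14 ± 0.23.

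CLDN4 in SCaBER was at 117 to 151 CPM in the controls, 109 and 220 CPM under siFOXA1.1 and 97.5 and 113 CPM under siFOXA1.2, with log2 changes of 0.36 ± 0.23 and -0.28 ± 0.24. The pair of siFOXA1.1 libraries lay on either side of the controls. CLDN7 was at 22.1 to 29.8 CPM in the controls, 28.6 and 45.4 CPM under siFOXA1.1 and 30.5 and 35.8 CPM under siFOXA1.2, with log2 changes of 0.52 ± 0.28 and 0.37 ± 0.29. OCLN and TJP3 varied most between libraries of the same siRNA: OCLN had 4 and 85 counts under siFOXA1.1 and 24 and 8 counts under siControl.1, and TJP3 had 44 and 2 counts under siControl.2. Their SEs in SCaBER, 0.91 and 1.47 on the log2 scale for siFOXA1.1, were above those of the other members there. CLDN3 did not pass the filter in SCaBER.

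The siFOXA1.1 libraries were also set directly against those of siFOXA1.2 in SCaBER, in the fit that takes its filter, scaling and spread from all 8 libraries. No member was called by edgeR there, with 4.13% of all genes called. An unadjusted p under 0.05 was found for 2259 of the 13407 genes and for 3 members, F11R (0.73 ± 0.21, adjusted p = 0.0743), CLDN4 (0.64 ± 0.28) and CLDN12 (1.37 ± 0.53). F11R was called with the batch replicate as a block, without the filter and with DESeq2. CLDN1 differed by 0.38 ± 0.23, given without a p-value because these libraries entered its choice.

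A fit over all 16 libraries set the change in RT112 against that in SCaBER for each siRNA, again as a description. The RT112 change minus the SCaBER change was -0.91 ± 0.28 for CLDN1 under siFOXA1.1 and -0.90 ± 0.28 under siFOXA1.2. It was 1.03 ± 0.28 for CLDN4 and 1.39 ± 0.32 for TJP1 under siFOXA1.1, and 0.13 ± 0.28 and 0.03 ± 0.32 for these genes under siFOXA1.2. For F11R it was -0.17 ± 0.22 and -0.18 ± 0.22. For TJP3, OCLN, CLDN12 and CLDN7 it was 2.48 ± 1.02, 1.68 ± 1.23, -0.98 ± 0.65 and 0.32 ± 0.35 under siFOXA1.1. Under siFOXA1.2 these genes had -0.76 ± 0.94, 1.42 ± 1.24, 0.33 ± 0.65 and -0.50 ± 0.35. The TJP3 values rest on few counts in SCaBER. There it had 2 to 44 counts in the controls, 7 and 1 under siFOXA1.1 and 8 and 17 under siFOXA1.2, a range that reaches the detection limit. CLDN3, almost absent from SCaBER, is left out.

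The members were also compared between the lines under the control siRNAs. With CLDN1 and CLDN3 left untested, CLDN4, CLDN7 and TJP3 were called higher and TJP1 lower in RT112 than in SCaBER. Of all 14036 genes tested 46.2% were called, 22.7% higher and 23.5% lower, so differences between the lines were common among all genes. CLDN3 (chromosome 7, 73768997 to 73770270) had 21 to 79 counts in each RT112 control library and 174 counts in all, against 1 count over the 4 SCaBER controls. Of the 8 SCaBER libraries, 7 had 0 counts. The ratio of CPM was 139, with a 95% exact interval of 24.6 to 5521 for counting error. CLDN3 passed the filter on low counts in this comparison only through the RT112 libraries, so no p-value is given. CLDN4, its neighbour on chromosome 7 (73830996 to 73832690), was at 281 to 399 CPM in the RT112 controls and 117 to 151 CPM in those of SCaBER. The lines did not overlap, and the log2 difference was 1.51 ± 0.13 (edgeR adjusted p = 2.17e-07).

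TJP3 was higher in RT112, at 20.5 to 44.1 CPM against 0.442 to 7.14 CPM in SCaBER (log2 difference 2.92 ± 0.49, edgeR adjusted p = 0.000207). TJP1 went the other way, at 21.6 to 34.1 CPM in RT112 against 138 to 183 CPM in SCaBER (log2 difference -2.55 ± 0.15, edgeR adjusted p = 6.23e-09). The 2 ZO scaffolds thus had opposite orders between the lines, without overlap for either. CLDN7 was higher in RT112 by 0.68 ± 0.20 (edgeR adjusted p = 0.0142), at 31.4 to 51.9 against 22.1 to 29.8 CPM, and lost its call when any 1 of 3 libraries was left out (RT112 siControl.1 replicate 1, RT112 siControl.2 replicate 2 or SCaBER siControl.2 replicate 2; highest adjusted p = 0.0805). It also did not pass against either control alone (adjusted p = 0.0522 for siControl.1 and 0.151 for siControl.2) or with limma on log2 TPM (0.26, adjusted p = 0.21). F11R, OCLN and CLDN12 did not pass, with log2 differences of -0.13 ± 0.12, -0.87 ± 0.68 and -0.08 ± 0.39, and CLDN1 had 0.18 ± 0.15, given without a p-value. With limma on log2 TPM F11R was called lower in RT112 (-0.52, adjusted p = 0.0128).

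Levels of the genes are listed here on TPM, in which the authors divided counts by gene length. With a kit that reads transcript ends this lowers long genes such as TJP1, so the order between genes holds for that scale only. In the RT112 controls the order was CLDN4 (153 TPM ± 20.7, SD, n = 4), F11R (72.6 ± 4.54), CLDN1 (49.7 ± 23.6), CLDN7 (32.5 ± 5.82), TJP3 (15.2 ± 5.20), CLDN3 (9.32 ± 6.00), TJP1 (4.57 ± 0.828), CLDN12 (2.65 ± 0.751) and OCLN (0.79 ± 0.467). The ranges of F11R and CLDN1, of CLDN1 and CLDN7, of TJP3 and CLDN3 and of CLDN3 and TJP1 overlapped, so these neighbours were not separated by their libraries. In the SCaBER controls F11R (106 ± 18.1 TPM) came first, followed by CLDN4 (70.8 ± 9.83), CLDN1 (57.6 ± 27.9), TJP1 (35.4 ± 4.503) and CLDN7 (26.9 ± 3.65). CLDN12 (3.94 ± 2.21), TJP3 (2.48 ± 2.02) and OCLN (2.37 ± 2.16) overlapped each other at the bottom, and CLDN3 was listed at 0 TPM in 3 of the 4 libraries and at 0.32 in the other. F11R and CLDN4, CLDN4 and CLDN1, CLDN1 and TJP1, and TJP1 and CLDN7 also overlapped by 1 library or more. On CPM, which is not divided by length, the order differed for long genes: TJP1 came second in the SCaBER controls (156 CPM, between F11R at 209 and CLDN4 at 130), and in the RT112 controls TJP1 (26.3 CPM) and CLDN12 (9.14 CPM) came before CLDN3 (6.15 CPM).

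**Figure D3:**
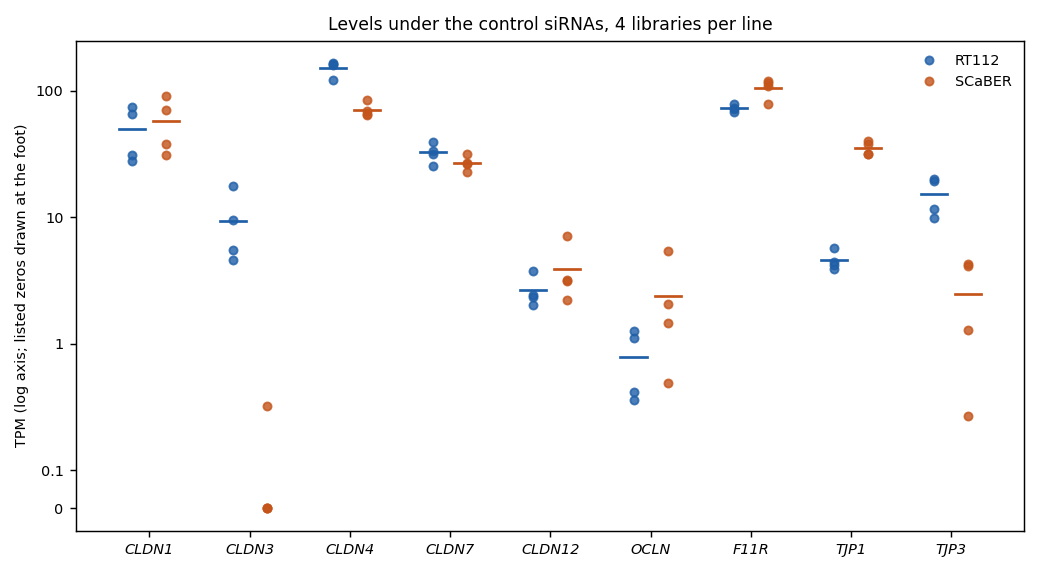
TPM (log axis, with listed zeros drawn at the foot) of the 9 members under the control siRNAs, 4 libraries per line, with RT112 in blue and SCaBER in orange and a bar at the mean. CLDN4, TJP3 and CLDN3 are higher in RT112 (153, 15.2 and 9.32 TPM on average) and TJP1 is higher in SCaBER (35.4 against 4.57 TPM).

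The wider junction was followed in 5 lists of 71 other genes: other claudins, other membrane proteins, plaque and polarity proteins, partners and regulators, and transcription factors known to act on junction genes. In RT112 under siFOXA1.1, 13 of the 47 that passed the filter rose and 8 fell, with a median log2 change of 0.05, where 29.1% of all genes were called, 14.0% higher, and the all-gene median was -0.02. The 5 other claudins tested had a lowest edgeR adjusted p of 0.0606. Among 18 plaque and polarity genes 6 rose and 3 fell. PARD6B, which encodes a polarity adaptor, and MPP5 (PALS1), its partner in apical polarity, rose with log2 changes of 1.46 ± 0.16 and 1.52 ± 0.25 (edgeR adjusted p = 9.49e-07 and 8.69e-05), and so did the angiomotin family gene AMOTL2 (1.68 ± 0.18, adjusted p = 5.54e-07) and the scaffold MAGI1 (1.66 ± 0.38, adjusted p = 0.00215). CGN, cingulin, fell from 23.95 to 38.003 CPM in the controls to 8.99 and 9.52 CPM, a log2 change of -1.68 ± 0.29 (edgeR adjusted p = 0.000197). YBX3, a nucleic acid binding protein that docks on ZO-1, fell with a log2 change of -1.01 ± 0.13 (edgeR adjusted p = 8.26e-06).

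Of the 10 partners and regulators tested, 5 rose and 2 fell in RT112 under siFOXA1.1, where 29.1% of all genes were called and 14.0% called higher. SPINT1, an inhibitor of membrane serine proteases that cleave cell surface proteins, rose with a log2 change of 1.54 ± 0.17 (edgeR adjusted p = 7e-07), and the kinase gene ROCK2, which regulates actomyosin tension, fell with -1.07 ± 0.16 (adjusted p = 3.91e-05). Of 8 transcription factors tested, 2 were called, a share near that of all genes. Both fell, KLF5 with a log2 change of -1.66 ± 0.15 (edgeR adjusted p = 8.39e-08) and PPARG with -0.70 ± 0.19 (adjusted p = 0.00794). Of 6 other membrane proteins, 2 rose and 1 fell. The last was ESAM, an adhesion molecule of the JAM type best known from endothelium, at 46 to 85 counts in the controls and 0 and 7 counts under siFOXA1.1 (edgeR adjusted p = 0.00423).

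Under siFOXA1.2 in RT112, 4 of the same 47 genes were called, against 1.78% of all genes. Among them, YBX3 rose by a log2 change of 0.57 ± 0.12 (edgeR adjusted p = 0.016) and CXADR, the coxsackievirus and adenovirus receptor of the junction, by 0.52 ± 0.12 (adjusted p = 0.0244), while ELF3, an epithelial ETS factor, fell with -1.03 ± 0.14 (adjusted p = 0.000266). YBX3 and ELF3 also differed between the control siRNAs in RT112. YBX3 was at 227 and 244 CPM under siControl.1, 118 and 124 CPM under siControl.2, 72.8 and 81.1 CPM under siFOXA1.1 and 241 and 256 CPM under siFOXA1.2 (siControl.1 against siControl.2 1.03 ± 0.15, edgeR adjusted p = 0.000427). Its siFOXA1.2 libraries lay beside those of siControl.1 and its siFOXA1.1 libraries below every other RT112 library. ELF3 differed by 0.62 ± 0.16 between the controls (edgeR adjusted p = 0.0432).

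Set against each other in RT112, siFOXA1.1 and siFOXA1.2 differed at 22 of the 47 genes, 13 higher and 9 lower under siFOXA1.1, where 24.7% of all genes differed and 11.4% were higher. MAGI1 (2.54 ± 0.48, edgeR adjusted p = 0.000576) and PARD6B (1.68 ± 0.20, adjusted p = 3.49e-06) were higher, and YBX3 (-1.58 ± 0.15, adjusted p = 2.27e-07) and PARD3, a polarity scaffold (-0.93 ± 0.23, adjusted p = 0.00436), were lower. In SCaBER, 3 of 49 differed between these siRNAs, against 4.13% of all genes: MPP5 was higher under siFOXA1.1 (0.78 ± 0.21, edgeR adjusted p = 0.0487), and YBX3 (-1.41 ± 0.23, adjusted p = 0.00251) and ELF3 (-1.04 ± 0.23, adjusted p = 0.016) were lower. Against the SCaBER controls, 3 of the 49 were called higher and 4 lower under siFOXA1.1, against 7.87% of all genes called. PARD6B rose from 17.003 to 45.04 CPM in the controls to 60.98 and 77.4 CPM under siFOXA1.1, and CGN was at 35.3 to 55.1 CPM in the controls and at 67.1 and 86.7 CPM under siFOXA1.1, the opposite of its order in RT112.

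**Figure D4:**
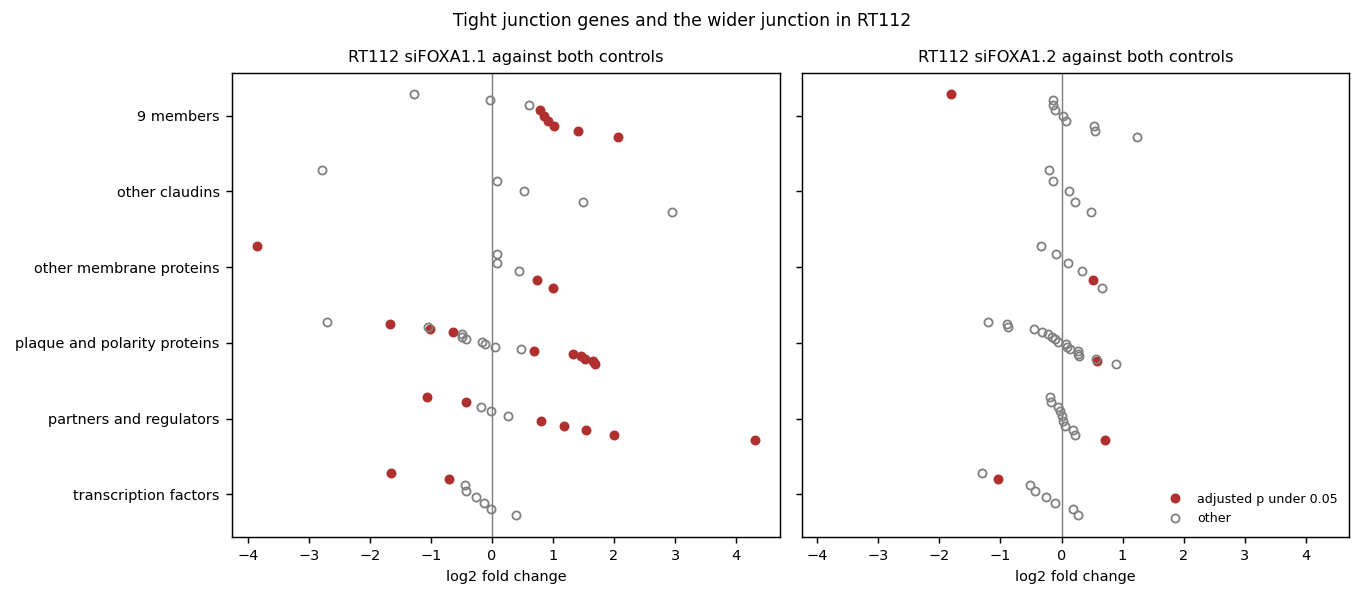
Fitted log2 fold change against both controls in RT112 for the 9 members and the 5 lists of other junction genes, under siFOXA1.1 (left) and siFOXA1.2 (right). Each circle is 1 gene that passed the filter, filled where the edgeR adjusted p was under 0.05; 6 members and 21 of the 47 other genes are filled on the left, and 1 and 4 on the right.

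Between the lines under the control siRNAs, 30 of 52 other junction genes were called, 14 higher and 16 lower in RT112, where 46.2% of all genes were called. ESAM, TWIST1, CLDN11 and MYLK are among these 30 and passed the filter on low counts only through the line where they were high. Neither the count nor the all-gene share leaves out genes of that kind, so both are a description. The factors GRHL1 (log2 difference 3.00 ± 0.25, edgeR adjusted p = 2.17e-07), KLF5 (1.90 ± 0.17, adjusted p = 4.14e-07), PPARG (1.81 ± 0.22, adjusted p = 9.79e-06) and ELF3 (1.55 ± 0.13, adjusted p = 1.29e-07) were higher in RT112. TWIST1, a factor of the mesenchymal programme, had 0 counts in all 8 RT112 libraries and 28 to 72 counts in each SCaBER control, at least 85.1-fold lower in RT112 against a floor of 3 counts over the 4 controls. ESAM had 0 counts in all 8 SCaBER libraries and was at least 64.2-fold higher in RT112. CLDN11 had 34 to 124 counts in the SCaBER controls and 6 counts in 1 RT112 control library, with 0 in the other 3. The myosin light chain kinase gene MYLK was at 83.2 to 105 CPM in the SCaBER controls and at most 0.399 CPM in those of RT112, and AMOTL1 and MPP5 were lower in RT112 (log2 differences -2.91 ± 0.15 and -2.63 ± 0.18, edgeR adjusted p = 9.55e-10 and 2.18e-08).

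Of 11799 other genes kept by the filter in both lines, those whose pattern was most like that of CLDN1, by Pearson r of log2 CPM minus the mean of the line over 16 libraries, were PRRC2C (0.923), PPP2R1B (0.914), SLC31A1 (0.91), WDR1 (0.889) and RBPJ (0.888). The points share library depth and siRNA, so r is a description. Within RT112, r was 0.763 (PRRC2C), 0.949 (PPP2R1B), 0.84 (SLC31A1), 0.936 (WDR1) and 0.958 (RBPJ). Within SCaBER it was 0.976, 0.908, 0.981, 0.937 and 0.91 in the same order. None of these 5 encodes a protein of the tight junction: WDR1 is a cofactor of actin filament disassembly, RBPJ the DNA-binding factor of Notch signalling, PPP2R1B a scaffold subunit of protein phosphatase 2A and SLC31A1 a copper transporter. The nearest member was F11R, at rank 919 with r of 0.467, followed by CLDN7 at rank 1928 with 0.332. All 5 were lowest under siControl.1 in both lines, as CLDN1 was; since they were picked for following CLDN1 over these libraries, their differences between the controls are given without a test. RBPJ was at 74.0 and 87.1 CPM under siControl.1 in RT112 and 214 and 222 CPM under siControl.2, a log2 difference of -1.37 ± 0.15. PPP2R1B had a log2 difference of -1.22 ± 0.26 in RT112 and of -1.49 ± 0.34 in SCaBER, and WDR1 one of -1.12 ± 0.14 in RT112 and of -1.04 ± 0.23 in SCaBER. In RT112 that of PRRC2C was -0.25 ± 0.13.

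**Figure D5:**
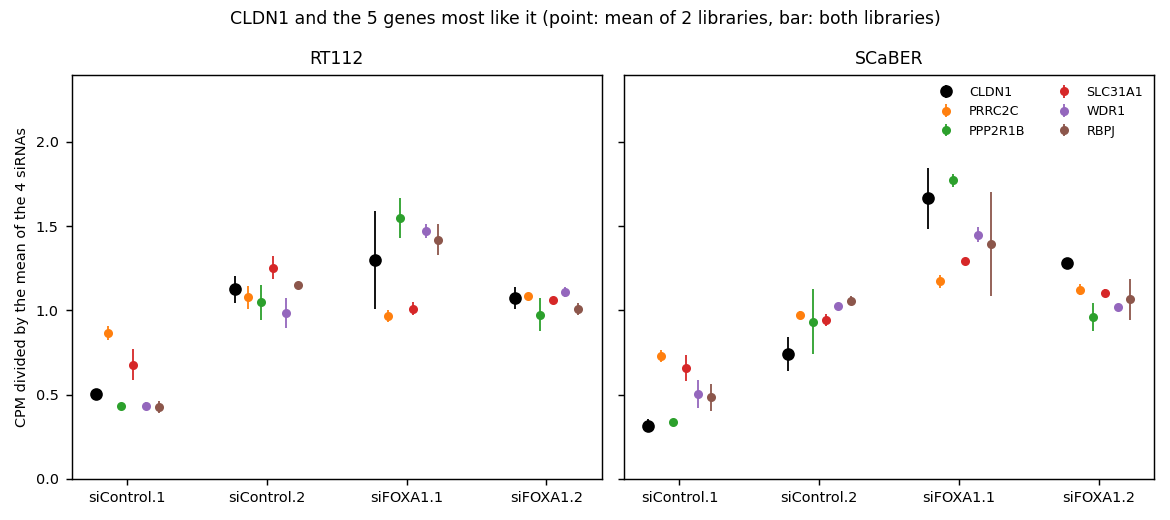
CPM of CLDN1 (black) and the 5 genes most like it, divided by each gene's mean over the 4 siRNAs, in RT112 (left) and SCaBER (right); points are means of 2 libraries and bars reach both libraries. In each line all 6 genes have their lowest point under siControl.1, where CLDN1 averaged 56.99 CPM in RT112 and 49.5 CPM in SCaBER.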

How the data were processed

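The authors deposited whole-number counts per gene and TPM values per gene. Their configuration file gives TrimGalore 0.6.2 for trimming (minimum quality 20, minimum length 10) and STAR 2.6.1a for alignment to hg38 and counting over GENCODE 29 genes, whereas the study's methods name hg19 (and 10 ng of siRNA, where the labels give 10 nM). Deduplication is not given in the sources used here, so intervals and limits cover counting error only.

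Counts of each line were fitted with edgeR 4.0.16 in R 4.3.3 (TMM, filterByExpr by siRNA, 1 mean per siRNA, quasi-likelihood F test, two-sided, Benjamini-Hochberg over all genes tested, threshold 0.05). This left 13462 genes in RT112 and 13407 in SCaBER. CPM values are scaled to library totals, fitted changes to TMM; an SE is the log2 change divided by the root of F. Log2 CPM differences used a pseudocount of 0.5. Pooled fits set 4 libraries against 4, the lines were compared over the 8 control libraries, and the fit for differences between lines used 16. The study pooled the siRNAs and used DESeq2. The script was tested on simulated counts.

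Nothing says that libraries came from separate cultures, so p-values measure the spread between these libraries. The labels call the replicate number a batch; deviations of same-numbered libraries correlated at -0.0158 to 0.00592 in RT112 and 0.00587 to 0.16 in SCaBER.

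Members and lists were chosen with earlier results of these data known. Named genes were the members, FOXA1, listed genes with an adjusted p under 0.05 and a mean of at least 20 counts (up to 6 per comparison and direction by size of change; not all are printed), and the 5 most like CLDN1. Of the partners and regulators, 1 gene is included in the counts and is not reported here. Alternatives were library totals, RLE scaling, no filter, DESeq2 1.42.0, limma 3.58.1 on log2(TPM + 1), the replicate block, leaving out each library, and, added after seeing the data, each control alone. The deposited files hold no coordinates; positions, promoters and motifs are from RefSeq on GRCh38.p14.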

Additional observations from a re-analysis of the deposited data

Results flagged for a closer look

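In 4 of the 34 groups of 4 libraries examined for a member, 1 library stood far from the other 3; chance alone flags about 1 group in 20. CLDN4 was at 281 CPM in RT112 siControl.2 replicate 1, against 390 to 399 CPM in the other 3 RT112 controls. CLDN4 was at 220 CPM in SCaBER siFOXA1.1 replicate 2, against 97.5 to 113 CPM in the other 3 SCaBER siFOXA1 libraries. The same library had the lowest TJP1 of these 4, at 85.8 CPM against 139 to 146 CPM. CLDN12 was at 13.3 CPM in RT112 siControl.1 replicate 2, against 7.23 to 8.12 CPM in the other 3. Each of these groups of 4 joins 2 siRNAs.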

How the results depend on the processing

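The number of members called, or the CLDN1 change, moved past its margin (1.5 times, or 1 SD) in 16 alternatives that kept every library and 10 that left 1 out, and did not in 60 and 78. With CLDN1 between the SCaBER controls set aside, the replicate block changed the call of F11R between the SCaBER siFOXA1 siRNAs and no other of those tried. F11R was called there with DESeq2 and without the filter as well. limma on TPM called 3 members in RT112 under siFOXA1.1 (28.2% of all genes), 3 between its siFOXA1 siRNAs (22.6% of all genes) and 0 between its controls (0.36%). In RT112 under siFOXA1.2, CLDN1 joined TJP3 (2 called) without the filter or against siControl.1 alone, where 1.89% and 2.38% of all genes were called. Against siControl.2 alone 0 members were called, with 1.08% of all genes. Against each control alone CLDN1 in SCaBER was 2.43 and 1.19 (siFOXA1.1), and 2.05 and 0.80 (siFOXA1.2). Signs turned against siControl.2 alone for TJP3 in RT112 under siFOXA1.1 (0.48), for CLDN1 (-0.019), CLDN4 (0.014), CLDN7 (0.070) and TJP1 (0.095) under siFOXA1.2, and for CLDN12 (0.17) and F11R (0.0038) between lines. They turned against siControl.1 alone for CLDN3 under siFOXA1.2 (-0.71) and OCLN between lines (0.11).

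With either siFOXA1.1 library left out, CLDN1 joined TJP3 in RT112 under siFOXA1.2, and TJP3 joined CLDN1 between its controls. In SCaBER between the siFOXA1 siRNAs, CLDN4 and CLDN12 were called without siFOXA1.1 replicate 1, and F11R without replicate 2. A library left alone in its arm was assumed to vary like the rest. The pooled CLDN1 change in SCaBER ran from 1.28 to 1.83, the latter without siControl.2 replicate 1. Signs turned within -0.094 to 0.019 (TJP3, RT112 siFOXA1.1), -0.12 to 0.35 (CLDN3), -0.34 to 0.033 (CLDN4) and -0.22 to 0.014 (TJP1) for siFOXA1.2, -0.019 to 0.69 (CLDN1 between the siFOXA1 siRNAs), and -0.34 to 0.23 (CLDN12 between lines). The cause of these shifts was not tested. Low counts limited OCLN, CLDN3 and, in SCaBER, TJP3 and FOXA1.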
